A study of Mus musculus with 8 samples.

Results

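Mt1 and Mt2 are the metallothionein genes of mouse liver, and their transcripts were followed in livers of Eps8KO mice. Rows of the deposited value table were named through the platform's probe table with the probe number set to the row number plus 32, and all rows with the symbol Mt1 (gene ID 17748) or Mt2 (gene ID 17750) were taken. This gave 3 probes of 20355 rows, probe 14466 for Mt1 and probes 11928 and 13639 for Mt2, and 2 of the 8789 genes named. The genes had been chosen by their low Eps8KO over WT ratios in these same arrays, so their Eps8KO over WT ratios are given as a description and without a test. The names rest on the shift of 32, which had been inferred in earlier work from the values of the arrays, low ratios of acute phase genes included.

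Liver RNA of 4 male Eps8KO mice, 17 weeks old, was compared with 1 pool of liver RNA from WT males of the same age. The Eps8KO line lacks Eps8, an actin regulator, had been backcrossed to C57BL/6, and was fed chow without restriction. Each Eps8KO mouse was hybridised against the pool on 2 glass cDNA arrays, once with its RNA in Cy5 and once in Cy3, which made 8 arrays with 17968 to 18802 values each. The pool held 5 mice by the list of animals, 6 by the labelling protocol and 4 by the design text, and it stands for 1 control sample without a spread of its own. All values below are log2 ratios, with the sign turned where Eps8KO RNA carried Cy3, so that a negative value means a lower signal in the Eps8KO mouse than in the WT pool. The files hold ratios and no signal levels, so the liver identity of the RNA and the abundance of the metallothioneins could not be checked, and with 0 probes of Eps8 among the named rows neither could the knockout. In whole liver, fewer cells of a type cannot be told apart from less RNA per cell.

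Metallothioneins are small proteins rich in cysteine that hold zinc and copper ions. In liver they store zinc, buffer free metal and react with oxidants. Transcription of Mt1 and Mt2 is driven by zinc through the transcription factor Mtf1, which binds metal response elements in their promoters, and it also rises with glucocorticoids and with interleukin-6 in the acute phase response. Mt3 is known mainly from brain and Mt4 from stratified epithelia. The genes lie side by side on mouse chromosome 8, in the RefSeq order Mt4, Mt3, Mt2, Mt1.

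The promoters are shown because transcription of both genes is driven through metal response elements. The sequences are RefSeq's, build GRCm38.p6, plus strand, the 250 bases before the annotated start, at chr8:94178839-94179088 for Mt1 and chr8:94172368-94172617 for Mt2. Capitals mark the core of the metal response element, searched as TGCACNC or TGCGCNC on both strands.
Mt1: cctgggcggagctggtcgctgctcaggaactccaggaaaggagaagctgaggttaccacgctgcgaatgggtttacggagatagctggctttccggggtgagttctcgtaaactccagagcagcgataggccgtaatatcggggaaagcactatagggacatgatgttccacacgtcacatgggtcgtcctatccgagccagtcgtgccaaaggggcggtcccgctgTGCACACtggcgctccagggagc
Mt2: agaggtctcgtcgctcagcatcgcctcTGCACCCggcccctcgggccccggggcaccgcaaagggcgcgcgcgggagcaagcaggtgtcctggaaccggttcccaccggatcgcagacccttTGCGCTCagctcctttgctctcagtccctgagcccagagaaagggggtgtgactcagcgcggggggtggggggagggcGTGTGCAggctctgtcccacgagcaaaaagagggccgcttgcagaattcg
In the whole window of 300 bases, which reaches 50 bases past the start, the core was found 3 times in Mt1 and 4 times in Mt2. In Mt1, 1 core lay before the annotated start. The other 2 lay after it, past the bases shown, and all 3 read on the forward strand. Whether transcription in liver begins at the annotated starts was not tested. In Mt2, 3 cores lay before the start and 1 after it, with 2 of the 4 on the reverse strand, and no cores overlapped in either gene. Among 27025 promoter windows of that length, 25.6% held at least 1 core, 2.0% held 3 or more as Mt1 did, and 0.503% held 4 or more as Mt2 did. The windows of Mt3 and Mt4 each held 1. The glucocorticoid response element, the half-sites GNACA and TGTNC with 3 bases between them, was found once in Mt1 and not in Mt2 (0.463% of windows). The antioxidant response element core TGACNNNGC was found once in Mt2 and not in Mt1 (12.5% of windows). The E-box CACGTG (7.24% of windows) and the STAT site TTCNNNGAA (8.47%) were found in neither. None of these motif matches overlapped a metal response element core. Bases outside the windows were not searched, so a motif not found here may lie elsewhere in the promoter.

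The signal of Mt1 was lower in Eps8KO liver than in the WT pool on all 8 arrays. In mouse 1 the log2 ratio was -3.65 where Eps8KO RNA carried Cy5 and -3.59 where it carried Cy3. In mouse 2 it was -2.63 in Cy5 and -3.87 in Cy3. In mouse 3 it was -2.62 in Cy5 and -3.65 in Cy3, and in mouse 4 it was -4.15 in Cy5 and -4.06 in Cy3. The arrays of mice 1 and 4 thus nearly matched across the dyes, while those of mice 2 and 3 were less negative in Cy5. The mouse means were -3.62, -3.25, -3.14 and -4.10, with mouse 4 the lowest, and they averaged -3.53 ± 0.44 (SD, n = 4 mice), an 11.5-fold lower signal in Eps8KO liver. On each array, from 0.417% to 4.77% of all rows had a lower ratio than Mt1.

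The first Mt2 probe, 11928, was also below 0 on every array that measured it, 7 of 7. It read -1.85 in Cy5 and -4.76 in Cy3 for mouse 1, and -1.91 in Cy5 and -3.42 in Cy3 for mouse 3. For mouse 4 it read -0.66 in Cy5 and -1.95 in Cy3, and for mouse 2 -2.36 in Cy5 with no value in Cy3. Within each of the 3 mice with both arrays the ratio was thus more negative with Eps8KO RNA in Cy3. The mouse means were -3.30, -2.36, -2.67 and -1.30, where mouse 2 rests on 1 array. They averaged -2.41 ± 0.83 (SD, n = 4), a 5.31-fold lower signal in Eps8KO liver. Mouse 4, the lowest of the mice for Mt1, was the least negative for this probe. On the Cy3 arrays 0.561% to 2.37% of all rows had a lower ratio than this probe. On the Cy5 arrays the share was 5.65% to 33.4%, the largest in mouse 4.

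The other Mt2 probe, 13639, lay near 0. Its ratios were -0.07 in Cy5 and 0.14 in Cy3 for mouse 1 and -0.36 in Cy5 and -0.10 in Cy3 for mouse 2. They were 0.03 in Cy5 and -0.48 in Cy3 for mouse 3, and 0.25 in Cy5 and -0.22 in Cy3 for mouse 4. Values thus fell on both sides of 0, with 5 of 8 arrays and 2 of 4 mice below it, and the mean was -0.10 ± 0.15 (SD, n = 4). The highest array of this probe, at 0.25, and the lowest, at -0.48, both lay above every array of probe 11928.

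**Figure D1:**
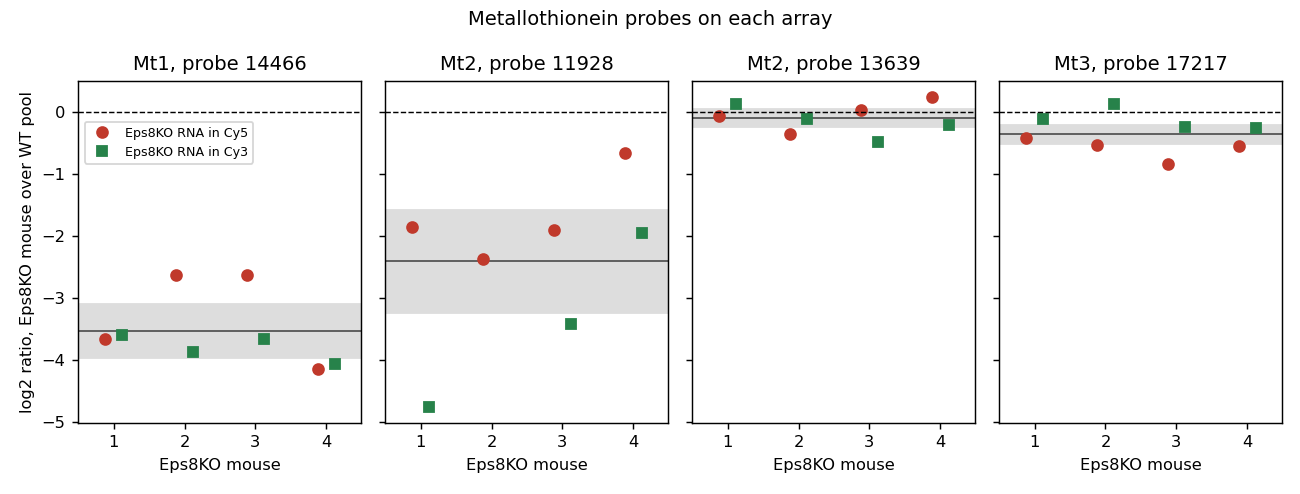
Log2 ratio of each Eps8KO mouse over the WT pool (vertical axis) by mouse (horizontal axis) for the probes of Mt1 and Mt2 and the Mt3 probe with 8 values. Circles are arrays with Eps8KO RNA in Cy5 and squares in Cy3, the line is the mean of the 4 mice and the band 1 SD. Mt1 lay between -4.15 and -2.62, Mt2 probe 11928 between -4.76 and -0.66, and Mt2 probe 13639 between -0.48 and 0.25.

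Averaged over both probes, Mt2 was at -1.26 ± 0.43 (SD, n = 4), a 2.39-fold lower signal in Eps8KO liver, with mouse values of -1.63, -1.30, -1.45 and -0.64. This mean describes neither probe, since probe 11928 lay below probe 13639 by a log2 difference of -2.31 ± 0.83 (SD, n = 4). Of the 1741 genes with exactly 2 probes measured in all 4 mice, 40, or 2.3%, had a gap between their probes at least as large, and the median gap was 0.30. The probe table ties both probes to the same Mt2 transcript. Mt1 and Mt2 mRNAs are alike in their coding parts, and whether a spot took up the transcript of the other gene was not tested.

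Mt2 was less negative than Mt1 in the gene mean, by 2.27 ± 0.80 (SD, n = 4) on the log2 scale. The size of that difference depended on the probe. Probe 11928 was above Mt1 by 0.32, 0.89, 0.47 and 2.80 in the 4 mice, a mean of 1.12 ± 1.15, so that the mean gap was no larger than its spread between mice. Probe 13639 was above Mt1 by 3.43 ± 0.57.

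Mt3, the only other metallothionein with probes, did not share the low ratios. Its 1 probe with 8 values, 17217, was at -0.35 ± 0.15 (SD, n = 4), below 0 in 4 of 4 mice and on 7 of 8 arrays. Probe 19168 had values on 5 arrays in 3 mice, with mouse means of 0.30, 1.73 and 0.84. Probe 19169 had values on 3 arrays, at 1.85, -0.76 and -3.04. The gene mean of -0.12 ± 1.14 (SD, n = 4; limma, adjusted p = 0.968) thus mixes a steady probe with probes that were often missing. Mt4 had 0 probes.

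Among the 18493 rows with a value in all 4 mice, Mt1 had the 52nd lowest mean, Mt2 probe 11928 the 122nd and Mt2 probe 13639 the 6008th. Among named genes only, Mt1 was 14th and the Mt2 gene mean 177th of 8214. The spread of Mt1 between mice was ordinary for these arrays, larger than that of 50.8% of rows, whose median SD was 0.43. Probe 11928 varied more than 72.7% of rows, and probe 13639 more than 11.3%. None of the 3 probes had a value at an array's highest or lowest value, where many rows with extreme ratios were placed. Of the 13328 rows with values on all 8 arrays, 75, or 0.563%, were below 0 on every array and 54, or 0.405%, above 0 on every array. Only 7 were at or below -1 throughout and 3 at or below -2, with Mt1 among both.

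**Figure D2:**
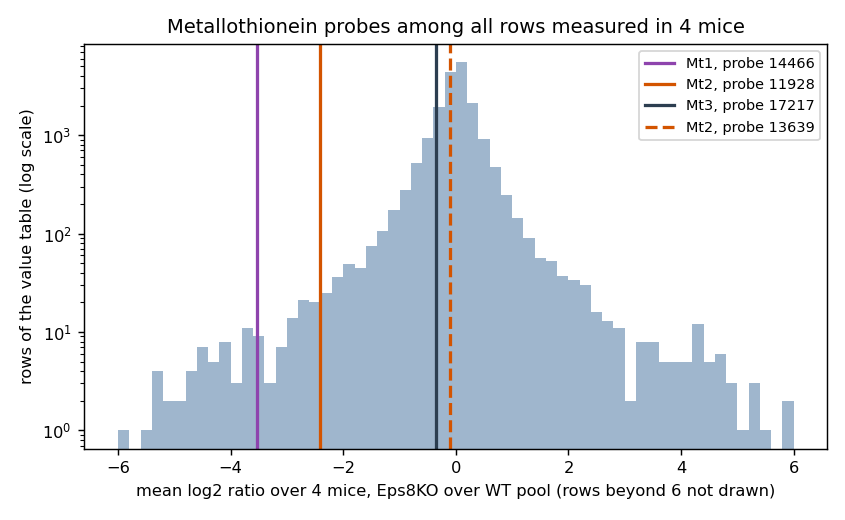
Number of rows (vertical axis, log scale) by their mean log2 ratio of Eps8KO over WT over 4 mice (horizontal axis). Vertical lines mark Mt1 at -3.53, Mt2 probe 11928 at -2.41, Mt3 probe 17217 at -0.35 and Mt2 probe 13639 (dashed) at -0.10.

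The dye swap gave a measure that had no part in choosing the genes. Where the ratios of both arrays of a mouse are averaged without turning the sign, the difference between the genotypes cancels and the dye effect remains, as a log2 ratio of Cy5 over Cy3. The dye effect was tested with limma against 0 in 11602 features, of which 3.12% passed an adjusted p of 0.05 and 29.5% an unadjusted p of 0.05, while 0 of the 2 genes passed either. It was 0.27 ± 0.35 for Mt1 (SD, n = 4; adjusted p = 0.327) and 0.07 ± 0.21 for Mt2 (SD, n = 4; adjusted p = 0.739), beside a median of -0.12 over all features. With array medians set to 0 the dye effect was larger, at 0.42 for Mt1 (limma, adjusted p = 0.159) and 0.22 for Mt2 (limma, adjusted p = 0.336). The values of Mt2 stand for probe 13639 alone, because probe 11928 lacked an array. With each probe as its own feature, probe 11928 had a dye effect of 0.95 ± 0.44 in the 3 mice with both arrays (limma, adjusted p = 0.107, unadjusted p = 0.0151).

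By orientation, Mt1 was at -3.26 ± 0.76 where the Eps8KO RNA carried Cy5 and -3.79 ± 0.21 in Cy3 (SD, n = 4 arrays each), and the 2 sets of arrays overlapped. Probe 11928 was at -1.70 ± 0.73 in Cy5 (SD, n = 4) and -3.38 ± 1.41 in Cy3 (SD, n = 3), also with overlap. Probe 13639 was at -0.04 ± 0.25 in Cy5 and -0.17 ± 0.26 in Cy3 (SD, n = 4 each). Ratios below 0 of Mt1 and of probe 11928 were therefore present in both orientations. In Cy5, however, probe 11928 was less apart from other rows, with 5.65% to 33.4% of rows lower on those arrays. Over all rows, the correlation between mice after turning ranged from -0.03 to 0.03, and between unturned arrays of the same orientation from 0.08 to 0.20. Between the unturned arrays of a mouse it ranged from 0.07 to 0.14. Once turned, the arrays of a mouse were thus negatively correlated over all rows.

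**Figure D3:**
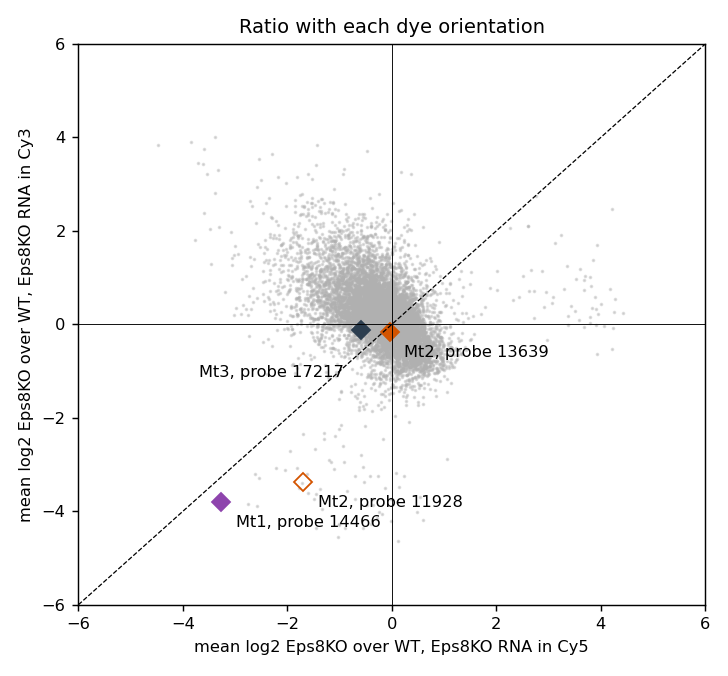
Mean log2 ratio of Eps8KO over WT with Eps8KO RNA in Cy3 (vertical axis) against that in Cy5 (horizontal axis), 1 grey point for each row with 8 values (those beyond 6 on either axis not drawn), with metallothionein probes as diamonds (open where 1 array was missing) and equality as the dashed line. Mt1 lay at -3.26 in Cy5 and -3.79 in Cy3, while much of the cloud ran from the upper left to the lower right, where the sign of the ratio changes with the dye.

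The named genes nearest to Mt1 were found by the Euclidean distance over the 8 turned array values among 6440 genes measured on all 8 arrays. In this order they were Rabgap1l, a Rab GTPase activating protein, at a distance of 2.22, Lcn2, which binds bacterial iron carriers, at 2.53, Saa3, an acute phase apolipoprotein, at 2.85, Orm1, an acute phase plasma protein, at 3.26, and Akr1b8, an aldo-keto reductase, at 3.55. The values of Rabgap1l were between -4.15 and -2.21 on the 8 arrays, and its mean was -3.24 ± 0.32 (SD, n = 4). Lcn2 had 1 probe on all 8 arrays, at a mean of -2.92, while its other probe was at -1.36. Saa3 averaged -3.30 ± 0.94 and was near Mt1 on all arrays but that of mouse 2 in Cy5, where it stood at 0.10, against -2.63 for Mt1. Orm1 averaged -2.63 ± 0.35 and Akr1b8 -2.56 ± 0.34.

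Over its 7 arrays, Mt2 probe 11928 was nearest to Lcn2 (distance 2.86), Hp, or haptoglobin, which binds free hemoglobin (2.91), Akr1b8 (2.98), Orm1 (3.02) and Hpx, which binds heme (3.17). Lcn2, Orm1 and Akr1b8 were on both lists. Probe 13639 was nearest to genes near 0, namely Ppp1cc (0.365), Acp2 (0.385), Nckipsd (0.387), Tnfaip8l1 (0.394) and Mrps27 (0.395). All arrays share the WT pool, so these distances also hold whatever was particular to that RNA. The distance follows the level of the ratios, and the genes had been chosen for low ratios. Genes with low ratios were therefore bound to be nearest to Mt1 and probe 11928, and no shared behaviour is read from these lists. Acute phase genes are among them, and low ratios of acute phase genes had taken part in setting the row names.

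**Figure D4:**
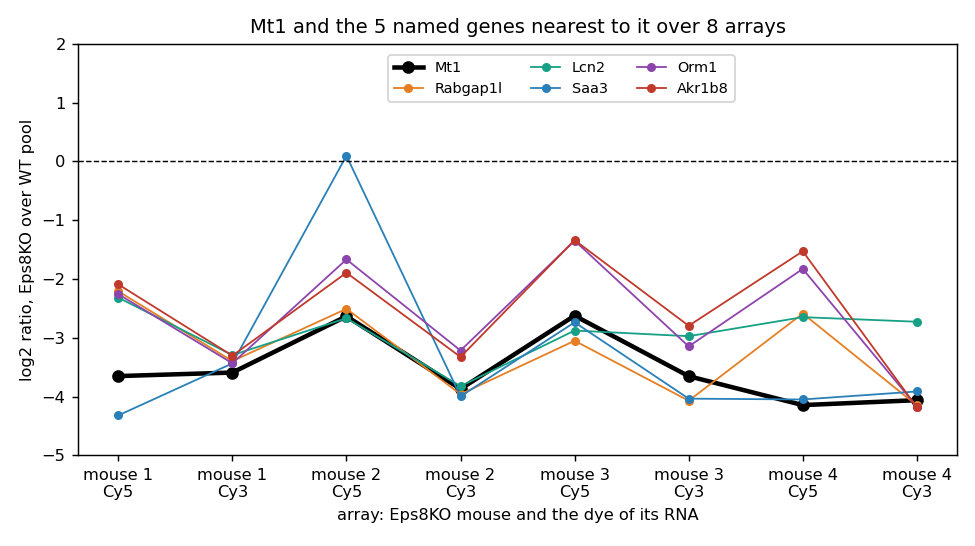
Log2 ratio of Eps8KO over WT (vertical axis) on each of the 8 arrays (horizontal axis, by mouse and by the dye of the Eps8KO RNA) for Mt1 in black and the 5 named genes nearest to it, each over its probes measured on all 8 arrays. Of the values drawn, that of Saa3 in mouse 2 in Cy5, at 0.10, was above 0.

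Apart from Atox1, whose mean rests on 1 mouse, no named gene of metal-responsive transcription, zinc transport or copper handling had a ratio as low as Mt1 or Mt2 probe 11928. Of 15455 features tested with limma for Eps8KO over WT, 0 passed an adjusted p of 0.05 in either direction (333 features, 2.15%, had an unadjusted p under 0.05 on the higher side and 478, 3.09%, on the lower side). At 1.6-fold with an unadjusted p under 0.05, 1.06% were higher and 1.57% lower, and the median feature was at 0.02. In the list of metal-responsive transcription, 0 of 11 measured genes reached 1.6-fold in either direction, and the median was 0.07. Mtf1, the zinc sensor that activates both genes, was at -0.01, and Sp1, a general activator, at -0.49 ± 1.03 (SD, n = 4). Csrp1, an Mtf1 target, was at 0.40 ± 0.25 (adjusted p = 0.906) and Slc39a10, a zinc importer that Mtf1 represses, at 0.31 ± 0.25 (adjusted p = 0.906). The signs of Mtf1, Csrp1 and Slc39a10 changed with the dye. With the Cy5 and Cy3 arrays, Mtf1 was at 0.37 and -0.39, Csrp1 at -0.46 and 1.26, and Slc39a10 at -0.18 and 0.76. Probe means ran from 0.06 to 0.75 for Csrp1 and from -0.07 to 0.63 for Slc39a10.

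Zinc transporters had a median of 0.05 with 0 of 12 genes at 1.6-fold. Slc39a14, or ZIP14, which brings zinc into hepatocytes during the acute phase, was at -0.46 ± 0.31 (SD, n = 4), below 0 in 4 of 4 mice (limma, adjusted p = 0.906). The low value of Slc39a14 came from 1 orientation, at -0.007 with the Cy5 arrays and -0.92 with the Cy3 arrays. Slc30a6, a zinc exporter to the Golgi, was at 0.84 ± 1.43, Slc30a3 at -0.32 ± 1.49 and Slc39a3 at 0.32 ± 0.52. The signs of Slc30a6 and Slc30a3 changed with the dye. With the Cy5 and Cy3 arrays, Slc30a6 was at -0.48 and 1.18, and Slc30a3 at -1.355 and 2.93. A probe of Slc30a6 had values on only 5 arrays, and its probe means were 0.24 and 1.44. Slc30a3 had values on 6 arrays. Among copper genes, 0 of 11 reached the criterion and the median was -0.14. Slc31a1, the copper importer, was at -0.54 ± 0.90, Cp, or ceruloplasmin, at -0.39 ± 0.48, and Loxl1, a lysyl oxidase that needs copper, between -1.94 and 0.19 in the 4 mice. The mean of Cp describes neither of its 2 probes, which were at -0.94 and 0.17. Loxl1 and Cp also changed sign with the dye. With the Cy5 and Cy3 arrays, Loxl1 was at -1.96 and 0.58, and Cp at -0.86 and 0.09. Atox1, the copper chaperone, was at -4.62 ± 7.93 because mouse 3 stood at -16.28. In the zinc enzymes of liver 1 of 13 genes was higher and 0 lower, that gene being Car3, a carbonic anhydrase, at 1.05 ± 0.21 (adjusted p = 0.454). The probe means of Car3 ran from 0.21 to 1.51.

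Genes that share inducers with the metallothioneins were read by list, and the lists overlap, with Lcn2 on more than 1. Over all features, 1.06% were higher and 1.57% lower at 1.6-fold with an unadjusted p under 0.05 (limma). Among interleukin-6 and STAT3 acute phase genes, 13 of 25 were lower at 1.6-fold with an unadjusted p under 0.05 and 0 were higher, the median was -1.11, and 20 were below 0. Without 1 mouse, 12 to 14 were lower, and the median was between -0.96 and -0.75. It was -0.77 with the Cy5 arrays and -1.56 with the Cy3 arrays, while the flip dye filter left 1 gene of the list, at -0.06. Saa1, an acute phase apolipoprotein, was at -3.30 ± 1.25 (SD, n = 4; limma, adjusted p = 0.63), Hp at -2.45 ± 0.22 (adjusted p = 0.119) and Hpx at -2.10 ± 0.29 (adjusted p = 0.187). The low ratios of acute phase genes had taken part in setting the row names, so this count is not independent of the names. Among glucocorticoid-induced genes 2 of 14 were lower and 0 higher, with a median of -0.14, which was 0.03 with the Cy5 arrays and -0.75 with the Cy3 arrays (2 genes passed the flip dye filter, at a median of -0.68). The lower ones were Lcn2 and Igfbp1, an insulin-like growth factor binding protein, at -1.21 ± 0.49 (adjusted p = 0.75).

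In the oxidative stress and glutathione list 1 of 34 genes was higher and 2 were lower, and the median was 0.08. By the same criterion, 1.06% of all features were higher and 1.57% lower. The lower ones were Akr1b8 (adjusted p = 0.143) and Txn1, or thioredoxin, between -2.01 and -0.43 in the 4 mice (adjusted p = 0.906), and the higher one was Gstm3, a glutathione transferase, at 0.68 ± 0.23 (adjusted p = 0.817). Iron genes had 1 higher and 3 lower of 14, with a median of -0.14. The lower ones were Hp, Lcn2 and Hpx, the plasma proteins named above, and the higher one was Heph, a ferroxidase, at 1.11 ± 0.84 (adjusted p = 0.906), whose sign changed with the dye, at 1.86 with the Cy5 arrays and -0.28 with the Cy3 arrays, on 7 arrays in all, and without mouse 1, 0 iron genes were higher. Fasting and feeding genes had 1 higher of 14, Cyp4a14, a fatty acid hydroxylase, at 1.33 ± 0.11 (adjusted p = 0.245), and 1 lower, Igfbp1, with a median of 0.20.

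Medians near 0 moved with single mice. Without mouse 4 that of fasting and feeding genes was 0.04, without mouse 2 that of iron genes was -0.0072, and without mouse 1 that of copper genes was -0.31. Without mouse 2 the medians of zinc enzymes and of oxidative stress genes turned to -0.03 and -0.04, and without mouse 3 that of zinc transporters was 0.000583. By dye, the median of metal-responsive transcription was -0.11 with the Cy5 arrays and 0.08 with the Cy3 arrays, that of zinc transporters -0.05 and 0.19, and that of oxidative stress genes 0.27 and -0.15, beside -0.14 and 0.20 over all features. No direction is therefore read from these medians.

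**Figure D5:**
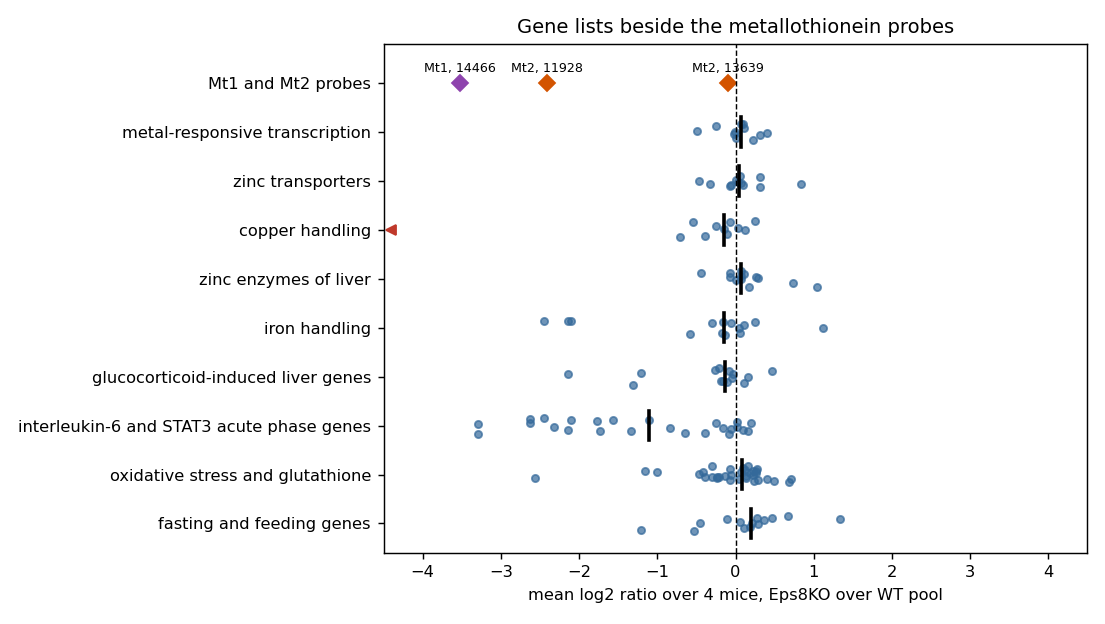
Mean log2 ratio of Eps8KO over WT over 4 mice (horizontal axis) for Mt1 and Mt2 probes (diamonds, top row) and for each measured gene of 9 lists (points, spread vertically for view), with the median of a list as a black bar and Atox1, at -4.62, as an arrowhead at the left edge. The median of interleukin-6 and STAT3 acute phase genes was -1.11, and the medians of the other lists lay between -0.14 and 0.20 with all mice and both dyes.

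Markers of liver cell types were read beside the metallothioneins, and their part in the low ratios was not tested. The counts stand beside 1.06% of all features higher and 1.57% lower by the same criterion. Hepatocyte markers had a median of 0.18, with 1 of 14 higher, Cyp3a11 at 0.86 ± 0.41, and 0 lower. Their median turned with the dye, at 0.89 with the Cy5 arrays and -0.53 with the Cy3 arrays, and the flip dye filter left 1 of these genes, at -0.31. Without mouse 3, 0 were higher. Kupffer cell and leukocyte markers had a median of -0.07 and 1 of 16 lower, Cd74, between -1.40 and -0.63 in the 4 mice. The probe means of Cd74 ran from -2.18 to -0.18. Stellate and endothelial markers had a median of -0.12 and 0 of 11 past the criterion, with Vwf, of endothelial cells, between -3.93 and -0.44 in the 4 mice (limma, adjusted p = 0.906). The probe means of Vwf ran from -2.91 to 0.02, with values on as few as 4 arrays. Markers of bile duct, pancreas and intestine had a median of -0.05 and 2 of 10 lower, Krt7 at -1.51 ± 0.40 on 4 arrays and Cpa1 at -0.95 ± 0.67, where the sign of Cpa1 changed with the dye, at -2.87 with the Cy5 arrays and 0.96 with the Cy3 arrays. The 3 red blood cell markers had a median of 0.10. By dye, the medians were -0.38 with the Cy5 arrays and 0.23 with the Cy3 arrays for Kupffer cell and leukocyte markers, -0.31 and 0.12 for stellate and endothelial markers, -0.14 and 0.35 for bile duct, pancreas and intestine, and 0.34 and -0.34 for red blood cells.

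The genes next to the metallothioneins on chromosome 8 had mean ratios near or above 0. Nup93, of the nuclear pore, is next to Mt1 in the RefSeq order and was at 0.08 ± 0.32 (SD, n = 4). Herpud1, of the endoplasmic reticulum, was at 0.73 ± 2.93, Cpne2 at 0.08 ± 0.58 and Psme3ip1 at -0.01 ± 0.20. On the side of Mt3, Ogfod1 was at 0.05 ± 0.46 and Gnao1, a G protein subunit, at 0.43 ± 0.25, above 0 in every mouse (limma, adjusted p = 0.906), while Bbs2 was not measured in all 4 mice.

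The values depend on the row names. With the row number taken as the probe number, the row of Mt1 had a mean of 0.76 ± 1.94 (SD, n = 4) over 7 arrays, and the rows of Mt2 had -0.01 ± 0.46 and 0.34 ± 0.63. With a shift of 31, Mt1 would be at -0.06 ± 2.30 and with 33 at -0.14 ± 1.16. A high metallothionein level in the WT pool cannot be told apart from a low level in the Eps8KO mice, since every array used that pool.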

How the data were processed

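Liver RNA of 4 Eps8KO mice was hybridised against 1 WT pool on 8 arrays, 2 per mouse with the dyes swapped. The deposited table holds log2 ratios, Cy5 over Cy3, whose direction follows the dyes named in the labels. In MIDAS, the authors scaled total intensity so that the mean log2 ratio became 0, removed spots by background (signal to noise 2.0), by a tolerance setting and by flip dye agreement, and then used SAM. Whether the deposited log2 values are those after these steps is not stated, and array means ranged from -0.39 to -0.18. Array medians ranged from -0.28 to -0.08. Scanner intensities were not used here, so signal over background is unknown and precision is limited by how few arrays there were.

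Each of the 8 columns entered the analysis. The 12398 probes with 1 symbol were matched by gene ID to RefSeq genes of GRCm38.p6. At the shift of 32, 12367 rows had a name and 7988 had none. After the sign was turned where Eps8KO RNA was in Cy3, values were averaged first within a mouse and then over probes of the same gene, and features missing in any of the 4 mice were left out. The mean was tested against 0 in limma 3.58.1 (lmFit, eBayes; R 4.3.3), two-sided, with Benjamini-Hochberg adjustment. The fit was also run on simulated mouse values that were independent and held no dye effect. That run cannot show how the fit behaves with the dye effects of these arrays. The WT pool counts as 1 control sample, so the spread between WT mice is left out. Tables and motif searches were made in Python 3.11.15 with pandas 2.3.3 and NumPy 2.4.6, and figures with Matplotlib 3.10.9.

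The members and the gene lists were chosen with earlier results of these data known. Named genes were, from each list, up to 4 with the largest mean ratio among those with the same sign in all mice and at least 1.6-fold. For metal-responsive transcription, zinc transporters and copper handling they were the 4 with the largest ratio whatever the sign. The 5 genes nearest to each probe and up to 4 genes with probes on either side in the RefSeq order were added. Mtf1 was named for its role, after its value was seen. Alternatives were other centrings, arrays of 1 orientation, a flip dye filter (pairs of arrays within 1 on the log2 scale), features complete over 8 arrays, features with 3 or more mice, array limits set to missing, each mouse left out, names without the shift, single probes, a random mouse block with a dye term, and a test without moderation.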

Additional observations from a re-analysis of the deposited data

Results flagged for a closer look

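Of 48 sets of 4 mouse values examined, 2 had 1 mouse that stood far from the other 3. Chance gives such a distance in about 5% of sets, so this number is no more than chance gives. Ndrg1, a stress-induced gene of the metal-responsive list, stood at a log2 ratio of 2.42 (Eps8KO over WT) in mouse 2, against -1.12, -1.27 and -1.05 in the other mice. Ndrg1 had values on only 5 arrays, and its sign changed with the dye, at -1.68 with the Cy5 arrays and 0.41 with the Cy3 arrays. Mouse and dye can thus not be told apart in these values. Slc31a1, the copper importer, was at -1.89 in mouse 3, against -0.04, -0.21 and -0.03 in the others. The probe means of Slc31a1 were -0.93 and -0.15. None of the Mt1 and Mt2 values was apart from the others by this measure.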

How the results depend on the processing

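Of 41 alternatives for Mt1, Mt2 and their difference, 31 moved the value by less than the spread between mice, 7 by more, and 3 turned the sign. The sign turned with names without the shift, at 0.76 for Mt1, 0.16 for Mt2 and -0.60 for Mt2 minus Mt1. Mt2 was at -0.10 with the flip dye filter, with values on all 8 arrays and with probe 13639 alone, where probe 11928 drops out, and at -2.41 with probe 11928 alone. Mt2 minus Mt1 was 3.43 with values on all 8 arrays and with probe 13639 alone, and 1.12 with probe 11928 alone. With the flip dye filter Mt1 had no mean, since mice 2 and 3 were removed and a value in each of the 4 mice was required. Without 1 mouse, Mt1 ranged from -3.66 to -3.34, Mt2 from -1.46 to -1.13 and their difference from 1.88 to 2.47.

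At an adjusted p under 0.05, the main count of 0 higher became 3 with Cy3 arrays alone, 4 with the mouse block and dye term, and 1 with values on all 8 arrays. The count of 0 lower became 3 with the flip dye filter, 8 with Cy3 arrays alone, 33 with the block, and 11 with values on all 8 arrays. At 1.6-fold, the 164 higher became 1 with the flip dye filter, 81 without moderation, 1487 with Cy3 arrays alone, 74 with the block, and 80 with values on all 8 arrays, and ranged from 219 to 253 without 1 mouse. The 243 lower became 8 with the flip dye filter, 133 without moderation, 466 with Cy3 and 1350 with Cy5 arrays alone, 118 with the block, and 127 with values on all 8 arrays, and ranged from 239 to 334 without 1 mouse. The 362 features with a dye effect became 591 with array medians set to 0 and 0 without any 1 of the mice, and the cause was not tested. Of 182 alternatives for list medians, 52 moved them by more than the spread between mice, those of acute phase genes and hepatocyte markers included. The dye effect with each Mt2 probe as its own feature was an alternative chosen after seeing the data. Spot intensities were not analysed here, so the precision of single ratios is unknown.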
